A study of Mus musculus with 16 samples.

Results

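The genes described here are 33 general markers of macrophages and monocytes, measured on expression arrays of mouse gastrocnemius muscle. They were chosen by name, as the probe sets whose annotated gene symbol is on a list of macrophage and monocyte genes, and each gene was represented by its brightest probe set over the 12 muscle arrays. All 33 had such a probe set, among 18194 genes that could be represented in this way. No measured value entered the choice of genes, although the list was drawn up with earlier results of these data known. The genes fall into 11 roles: a growth factor receptor with a lineage factor, recruitment receptors, surface identity proteins, leukocyte integrins, Fc receptors, pattern recognition and scavenger receptors, the phagocyte oxidase, lysosomal proteins, repair-type products, leukocyte surface proteins, and leukocyte cytoskeleton and signalling proteins.

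The study asked what the glycosyltransferase Galgt2, whose current gene symbol is B4galnt2, does to gene expression in normal and dystrophic muscle. Arrays were run in sets. The transgenic set held 2 arrays each of 4 groups of male mice aged 2 months: C57BL/6J wild type, dystrophin-deficient mdx on C57BL/10J, Galgt2 transgenic on C57BL/6J, and mice from C57BL/10J x C57BL/6J that were both dystrophin-deficient and Galgt2 transgenic (transgenic mdx). The injected set held 2 arrays each of dystrophin-deficient C57BL/10J muscle treated with an adeno-associated virus (AAV) carrying Galgt2 and of muscle treated with phosphate-buffered saline (PBS), again from males aged 2 months. A set of 4 single arrays of the C2C12 myoblast line, with and without stable Galgt2 transfection and before and after differentiation, served here only as muscle cells without macrophages. Within the transgenic set, strain differed together with genotype in every comparison except transgenic against wild type, so strain and genotype cannot be told apart in the others. The promoter that drives the transgene is not given in the sources used here, nor is it stated that replicate arrays came from separate mice. The p-values therefore measure only the spread between these samples, which may be technical.

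Macrophages clear damaged fibres in dystrophic muscle. Blood monocytes enter through chemokine receptors such as Ccr2, differentiate under the growth factor receptor Csf1r and the transcription factor PU.1, which Spi1 encodes, and then engulf debris through Fc, scavenger and pattern recognition receptors. Later they make products tied to repair. Many of the 33 genes are also used by other leukocytes: Ptprc (CD45), Cd53, Cd52, Coro1a, Lcp1 and Itgb2 by lymphocytes, and Itgam, Itgb2, Cybb, Ncf1 and Ncf4 by neutrophils. In whole muscle, more cells of a type and more RNA per cell cannot be told apart.

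PU.1 binds purine-rich DNA around the letters GAGGAA. Promoter windows of 300 bases, from 250 bases before to 50 after the annotated start, were taken from RefSeq on build GRCm38.p6 and matched 24 of the 33 genes. The letters GAGGAA, on either strand, were in a window of 14 of the 24 genes (58.3%) and of 31.3% of the 27025 genes in the table. The longer GAGGAAG, which contains the shorter letters, was found for 8 of the 24 (33.3%) and for 15.4% of all genes. These 8 were Cd300a, Cd53, Ctss, Fcgr1, Fcgr3, Itgam, Laptm5 and Mrc1. Of these, Cd300a, Cd53, Ctss, Fcgr1, Fcgr3 and Laptm5 passed the test as higher in mdx muscle, as did 25 of all 33 genes. Mrc1 did not, and Itgam had no readable level on the wild-type arrays. A link between the letters and the levels was not tested. The windows of Fcgr1, Ctss, Mrc1 and Itgam are shown. They lie at chr3:96293920-96294219 on the minus strand (Fcgr1), chr3:95526536-95526835 on the plus strand (Ctss), chr2:14229164-14229463 on the plus strand (Mrc1) and chr7:128062390-128062689 on the plus strand (Itgam). Each is written 5′ to 3′ along the gene, with GAGGAAG or its reverse complement CTTCCTC in capitals.
Fcgr1: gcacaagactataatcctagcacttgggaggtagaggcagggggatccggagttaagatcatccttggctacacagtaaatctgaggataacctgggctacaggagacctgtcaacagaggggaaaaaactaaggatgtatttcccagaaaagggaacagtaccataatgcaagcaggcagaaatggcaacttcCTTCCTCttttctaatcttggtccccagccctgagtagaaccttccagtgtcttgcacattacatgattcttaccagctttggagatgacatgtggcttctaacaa
Ctss: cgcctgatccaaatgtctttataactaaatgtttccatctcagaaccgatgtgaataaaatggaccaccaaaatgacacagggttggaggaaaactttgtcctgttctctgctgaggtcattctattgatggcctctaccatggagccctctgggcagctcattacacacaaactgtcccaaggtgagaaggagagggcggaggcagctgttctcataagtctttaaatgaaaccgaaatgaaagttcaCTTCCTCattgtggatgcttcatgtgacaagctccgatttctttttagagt
Mrc1: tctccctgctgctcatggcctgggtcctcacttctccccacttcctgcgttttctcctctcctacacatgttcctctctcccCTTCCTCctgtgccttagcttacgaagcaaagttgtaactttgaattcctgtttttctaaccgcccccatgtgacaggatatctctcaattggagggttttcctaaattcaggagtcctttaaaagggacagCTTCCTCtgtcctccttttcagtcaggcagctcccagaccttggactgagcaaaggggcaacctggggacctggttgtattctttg
Itgam: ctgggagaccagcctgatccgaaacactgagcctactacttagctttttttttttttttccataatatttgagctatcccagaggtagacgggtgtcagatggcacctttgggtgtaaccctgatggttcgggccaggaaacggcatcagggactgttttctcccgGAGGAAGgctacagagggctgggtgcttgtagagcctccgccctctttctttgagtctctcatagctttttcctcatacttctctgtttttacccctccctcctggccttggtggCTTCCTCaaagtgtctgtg
The match began 56 bases before the start in Fcgr1 and 1 base before it in Ctss. Mrc1 held 2 matches, 168 and 36 bases before the start. Itgam held 2, beginning 84 bases before the start and 31 bases after it. A match of these letters describes the sequence and shows no binding.

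The targeted genes were checked first. B4galnt2 read 13.17 to 13.34 (log2 intensity, the unit of all levels below) on the 4 arrays labelled transgenic or transgenic mdx, and 3.86 to 4.94 on the wild-type arrays and the array labelled mdx replicate 1. The array labelled mdx replicate 2 stood between, at 7.78. Dmd, which encodes dystrophin, read 10.98 to 11.16 on the wild-type and transgenic arrays, 8.52 and 8.13 on the mdx and 9.86 and 9.87 on the transgenic mdx arrays. B4galnt2 read 10.54 and 10.56 in AAV-Galgt2-treated and 5.27 and 4.26 in PBS-treated muscle. The 3′ to 5′ log2 difference of the Gapdh control probe sets, a sign of RNA quality, was 1.23 on the array labelled transgenic mdx replicate 2 and 0.18 to 0.48 on the other muscle arrays. Several of the counts of genes that passed the test are given below with and without the arrays labelled mdx replicate 2 and transgenic mdx replicate 2.

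Over the 33 genes, mdx muscle had the highest mean level of the transgenic set, wild type the lowest, and transgenic and transgenic mdx muscle lay between. The mean was 7.07 ± 0.04 (SD, n = 2) in wild-type, 9.57 ± 0.27 in mdx, 7.99 ± 0.53 in transgenic and 8.37 ± 0.07 in transgenic mdx muscle, while the mean over all genes stayed between 7.13 and 7.23. Array by array the means were 7.04 and 7.10, 9.76 and 9.38, 8.36 and 7.61, and 8.32 and 8.41 in that order. Neither mdx array overlapped with any other group. The first transgenic array lay between the 2 transgenic mdx arrays, and the second lay below both. For 27 of the 33 genes both transgenic mdx arrays lay above both wild-type and below both mdx arrays, a pattern held by 3.58% of all genes. The exceptions were Itgam, Cd163, Arg1, Ptprc, Cd52 and Plek. With both the array labelled mdx replicate 2 and transgenic mdx replicate 2 left out, the pattern held for 30 of the 33 and for 10.3% of all genes.

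**Figure D1:**
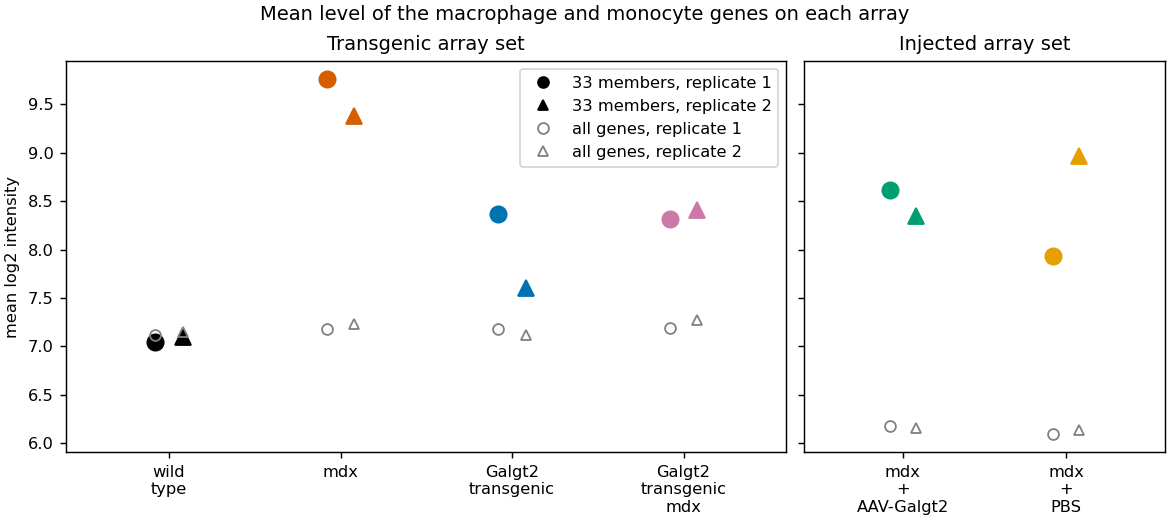
Mean log2 intensity of the 33 macrophage and monocyte genes (filled) and of all 18194 genes (open) on each muscle array, circles for replicate 1 and triangles for replicate 2. The mdx arrays sit at 9.76 and 9.38 and the wild-type arrays at 7.04 and 7.10, and the PBS-treated arrays at 7.93 and 8.97 enclose both AAV-Galgt2-treated arrays.

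Levels are given next by role, and each log2 difference carries its standard error from limma with 2 arrays per group. Csf1r, the receptor through which CSF1 keeps macrophages alive, varied widely between replicates. Csf1r read 11.15 and 10.20 (wild type), 11.98 and 12.56 (mdx), 11.79 and 10.19 (transgenic), and 11.56 and 11.79 (transgenic mdx). Its mdx arrays lay above all others, but the difference from wild type, 1.59 ± 0.50, missed the threshold (adjusted p = 0.0947). Spi1 read 5.11 and 5.20 (wild type), 6.66 and 7.18 (mdx), 5.46 and 4.98 (transgenic), and 5.30 and 5.45 (transgenic mdx). Spi1 was high on both mdx arrays and nearly level on the other 6. It was 1.76 ± 0.29 higher in mdx than in wild type (adjusted p = 0.00987) and lower in transgenic mdx than in mdx muscle, by a log2 difference of -1.55 ± 0.29 (adjusted p = 0.0155).

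Among the recruitment receptors, Ccr2 draws monocytes from blood and Cx3cr1 binds the membrane-bound chemokine fractalkine. Ccr2 read 7.86 and 7.52 (wild type), 9.87 and 9.70 (mdx), 8.69 and 8.45 (transgenic), and 9.20 and 9.62 (transgenic mdx). Ccr2 rose by 2.10 ± 0.24 in mdx (adjusted p = 0.003) and, at 1.72 ± 0.24, was also higher in transgenic mdx than in wild-type muscle (adjusted p = 0.00228). The transgenic mdx arrays lay just below the mdx arrays, with a difference of -0.38 ± 0.24. Cx3cr1 read 5.71 and 6.14 (wild type), 6.85 and 7.64 (mdx), 6.07 and 5.84 (transgenic), and 6.22 and 6.70 (transgenic mdx). Cx3cr1 rose by 1.32 ± 0.33 in mdx (adjusted p = 0.0481), and the second mdx array was the higher one. Its other probe set stayed within the range of the 15 bacterial control probe sets on all 12 muscle arrays, so no direction can be read from it.

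The surface identity proteins moved together. Adgre1 (F4/80) is the classical mouse macrophage antigen, Mpeg1 (perforin-2) forms pores in engulfed bacteria, Cd84 is a self-binding SLAM-family receptor, and Cd300a is an inhibitory receptor. Adgre1 read 7.01 and 7.23 (wild type), 9.82 and 9.77 (mdx), 7.85 and 7.98 (transgenic), and 8.43 and 8.91 (transgenic mdx). Mpeg1 read 7.83 and 7.06 (wild type), 11.14 and 11.08 (mdx), 9.97 and 8.22 (transgenic), and 9.94 and 9.65 (transgenic mdx). Cd84 read 6.17 and 6.29 (wild type), 9.94 and 9.40 (mdx), 8.19 and 7.61 (transgenic), and 8.0 and 8.40 (transgenic mdx). In all 3 the groups stood in the same order, mdx on top and wild type at the bottom, and only for Adgre1 did the transgenic arrays lie wholly below the transgenic mdx arrays. Cd300a read 5.45 and 6.14 (wild type), 8.98 and 8.94 (mdx), 6.96 and 6.73 (transgenic), and 7.00 and 6.75 (transgenic mdx). Cd300a read much the same in transgenic and transgenic mdx muscle. All 4 rose in mdx muscle, by 2.67 ± 0.28 for Adgre1, 3.67 ± 0.49 for Mpeg1, 3.44 ± 0.28 for Cd84 and 3.16 ± 0.34 for Cd300a, or 6.37-fold to 12.7-fold. In transgenic mdx against mdx muscle 3 of the 4 fell, with differences of -1.13 ± 0.28 for Adgre1, -1.47 ± 0.28 for Cd84 and -2.09 ± 0.34 for Cd300a, or 2.18-fold, 2.77-fold and 4.25-fold. Mpeg1 differed by -1.32 ± 0.49 (adjusted p = 0.145).

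The leukocyte integrin chains parted. Itgam (CD11b) and Itgb2 (CD18) pair to form complement receptor 3. Itgb2 read 5.66 and 5.73 (wild type), 9.76 and 8.89 (mdx), 7.27 and 6.22 (transgenic), and 7.10 and 7.27 (transgenic mdx). Itgb2 rose 12.4-fold in mdx muscle (3.63 ± 0.61, adjusted p = 0.0104), and its difference between transgenic mdx and mdx muscle, -2.14 ± 0.61, missed the threshold (adjusted p = 0.067). Itgam read 4.25 and 4.32 (wild type), 4.98 and 4.31 (mdx), 4.09 and 3.92 (transgenic), and 4.28 and 4.52 (transgenic mdx). Its only probe set stayed within the range of the 15 bacterial control probe sets on both wild-type, both transgenic and all 4 injected-set arrays, so no level of Itgam can be read there, and its difference of 0.36 ± 0.23 in mdx did not pass.

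Fc receptors bind antibody-coated targets, and Fcer1g is the signalling chain that several of them share. Fcer1g read 8.51 and 8.61 (wild type), 10.93 and 11.31 (mdx), 9.78 and 8.90 (transgenic), and 9.98 and 9.81 (transgenic mdx). Fcgr1 read 5.54 and 5.50 (wild type), 8.67 and 9.06 (mdx), 6.98 and 6.68 (transgenic), and 7.97 and 7.65 (transgenic mdx). Fcgr3 read 7.87 and 8.54 (wild type), 11.12 and 10.47 (mdx), 9.30 and 9.49 (transgenic), and 9.24 and 9.64 (transgenic mdx). In all 3 the mdx arrays were highest and no transgenic mdx array reached them. Each rose in mdx muscle, Fcgr1 (the high-affinity IgG receptor) by 3.34 ± 0.42, Fcgr3 by 2.59 ± 0.33 and Fcer1g by 2.56 ± 0.40. Fcgr3 fell in transgenic mdx against mdx muscle, with a difference of -1.35 ± 0.33 (adjusted p = 0.0412). The corresponding differences of -1.05 ± 0.42 for Fcgr1 and -1.22 ± 0.40 for Fcer1g did not pass.

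The pattern recognition and scavenger receptors differed widely among themselves, from -0.28 to 3.65 in mdx against wild-type muscle. Clec7a (dectin-1) recognises fungal glucans and Cd14 presents bacterial lipopolysaccharide. Clec7a read 5.80 and 5.74 (wild type), 9.90 and 8.94 (mdx), 8.24 and 7.17 (transgenic), and 8.08 and 8.41 (transgenic mdx). Cd14 read 6.07 and 6.38 (wild type), 9.76 and 8.23 (mdx), 7.66 and 7.19 (transgenic), and 7.60 and 7.88 (transgenic mdx). Both genes were highest on the first mdx array, and both rose in mdx muscle, Clec7a by 3.65 ± 0.40 and Cd14 by 2.77 ± 0.63. The scavenger receptors that mark resident or repair-type macrophages did not follow. Mrc1 read 10.59 and 10.56 (wild type), 11.36 and 10.80 (mdx), 10.68 and 10.18 (transgenic), and 10.61 and 10.67 (transgenic mdx). Cd163 read 10.01 and 10.55 (wild type), 9.99 and 10.01 (mdx), 9.89 and 9.81 (transgenic), and 9.76 and 9.89 (transgenic mdx). Mrc1 (the mannose receptor, CD206) differed by 0.51 ± 0.27 between mdx and wild-type muscle (adjusted p = 0.334) and Cd163 (the haemoglobin scavenger receptor) by -0.28 ± 0.23 (adjusted p = 0.583). For Cd163 the second wild-type array was the highest of the 8 and the mdx arrays overlapped with wild type. Msr1, the class A scavenger receptor, lay between these patterns at 1.62 ± 0.45 (adjusted p = 0.0671). None of these 5 genes passed in transgenic mdx against mdx muscle, where the differences ran from -1.35 (Msr1) to -0.17 (Cd163).

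The phagocyte oxidase makes superoxide to kill engulfed microbes. Cybb is its catalytic subunit, and Ncf1 and Ncf4 are cytosolic subunits. Cybb read 6.44 and 5.77 (wild type), 9.50 and 8.49 (mdx), 7.83 and 6.87 (transgenic), and 7.73 and 6.87 (transgenic mdx). Ncf4 read 5.22 and 5.32 (wild type), 8.75 and 7.38 (mdx), 6.33 and 6.18 (transgenic), and 6.56 and 7.03 (transgenic mdx). The first mdx array exceeded the second by about 1 log2 unit or more in both. All 3 rose in mdx muscle by nearly the same amount: Cybb by 2.89 ± 0.51, Ncf1 by 2.88 ± 0.43 and Ncf4 by 2.80 ± 0.47. In transgenic mdx against mdx muscle the differences were -1.70 ± 0.51, -1.62 ± 0.43 and -1.27 ± 0.47, and none passed (adjusted p = 0.0812, 0.0539 and 0.144).

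Of the lysosomal proteins, Ctss (cathepsin S) processes antigen and Laptm5 is a leukocyte lysosomal membrane protein. Ctss read 10.33 and 10.40 (wild type), 12.87 and 12.62 (mdx), 12.08 and 11.32 (transgenic), and 12.29 and 12.25 (transgenic mdx). Ctss rose by 2.38 ± 0.25 in mdx and by 1.33 ± 0.25 in transgenic muscle, and the difference of transgenic mdx from mdx muscle was -0.48 ± 0.25 (adjusted p = 0.309). Laptm5 read 9.99 and 9.16 (wild type), 12.27 and 12.44 (mdx), 11.20 and 9.97 (transgenic), and 11.31 and 11.34 (transgenic mdx). Laptm5 rose by 2.79 ± 0.43 in mdx muscle, and the second transgenic array read as low as the first wild-type array. Of its 4 other probe sets 2 lay well above the bacterial controls and differed in the same direction, by 3.26 and 2.81, while the others stayed within the range of those controls on 10 and 12 of the 12 arrays.

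The repair-type products had the highest median rise of any role in mdx muscle, 4.94, and wide gaps between replicates. Arg1 (arginase 1) and Chil3 (Ym1) are classical products of repair-type macrophages, and Il1rn is the interleukin 1 receptor antagonist. Il1rn read 3.94 and 5.41 (wild type), 10.27 and 8.96 (mdx), 7.14 and 5.87 (transgenic), and 6.95 and 6.14 (transgenic mdx). Arg1 read 4.95 and 4.29 (wild type), 5.84 and 6.18 (mdx), 4.70 and 4.40 (transgenic), and 4.48 and 4.16 (transgenic mdx). Chil3 read 3.47 and 3.83 (wild type), 8.50 and 8.80 (mdx), 8.38 and 4.70 (transgenic), and 5.21 and 5.50 (transgenic mdx). Chil3 is shown because its transgenic arrays stood so far apart, a choice made after its values were seen: the first read like mdx muscle and the second was near wild type. In mdx muscle Chil3 rose by 5.0 ± 0.90 (adjusted p = 0.0132) and Il1rn by 4.94 ± 1.00 (adjusted p = 0.0207), the largest rises among the 33 genes. On the wild-type arrays Chil3 stayed within the range of the bacterial controls on both and Il1rn and Arg1 on 1 each, so the size of these rises rests on levels near background. Arg1 differed by 1.39 ± 0.71 in mdx (adjusted p = 0.316), and both transgenic mdx arrays read within the span of wild type or below it. The differences of transgenic mdx from mdx muscle were -3.29 ± 0.90 for Chil3, -3.07 ± 1.00 for Il1rn and -1.69 ± 0.71 for Arg1, and none passed (adjusted p = 0.0598, 0.103 and 0.204).

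None of the leukocyte surface proteins passed in transgenic mdx against mdx muscle. Ptprc is the pan-leukocyte phosphatase CD45, Cd53 a tetraspanin and Cd52 a small lipid-anchored glycoprotein. Cd53 read 10.49 and 10.35 (wild type), 12.32 and 12.17 (mdx), 11.43 and 10.54 (transgenic), and 11.46 and 11.58 (transgenic mdx). Cd52 read 6.58 and 6.80 (wild type), 11.01 and 9.62 (mdx), 8.97 and 8.39 (transgenic), and 9.32 and 9.72 (transgenic mdx). Ptprc read 7.81 and 8.25 (wild type), 10.50 and 9.21 (mdx), 9.33 and 8.41 (transgenic), and 9.43 and 10.48 (transgenic mdx). Cd52 on the second mdx array and Ptprc on the second mdx and second transgenic mdx arrays crossed the other group, so that the 2 groups overlapped. In mdx muscle Cd53 rose by 1.82 ± 0.26 and Cd52 by 3.63 ± 0.40, whereas Ptprc differed by 1.82 ± 0.48 (adjusted p = 0.0552). Between transgenic mdx and mdx muscle the differences were -0.73 ± 0.26, -0.80 ± 0.40 and 0.10 ± 0.48. Ptprc was the only one of the 33 with a positive sign (49% of all genes).

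The last group joins proteins of the leukocyte cytoskeleton and signalling: Aif1 (Iba1) and Lcp1 (L-plastin) bind actin, Coro1a (coronin 1A) controls actin turnover, and Plek (pleckstrin) is a kinase substrate. Lcp1 read 9.61 and 9.52 (wild type), 12.04 and 11.96 (mdx), 10.67 and 9.91 (transgenic), and 10.80 and 10.36 (transgenic mdx). Aif1 read 5.71 and 5.97 (wild type), 8.09 and 8.12 (mdx), 7.29 and 6.42 (transgenic), and 7.66 and 7.56 (transgenic mdx). Coro1a read 8.24 and 8.33 (wild type), 11.28 and 11.17 (mdx), 9.54 and 8.92 (transgenic), and 9.47 and 9.38 (transgenic mdx). Lcp1 and Coro1a were high on both mdx arrays alone, where the replicates lay close together. Lcp1 rose by 2.44 ± 0.33, Aif1 by 2.26 ± 0.30 and Coro1a by 2.94 ± 0.38 in mdx muscle. Against mdx, transgenic mdx muscle had Lcp1 lower by 2.68-fold (-1.42 ± 0.33, adjusted p = 0.035) and Coro1a lower by 3.47-fold (-1.80 ± 0.38, adjusted p = 0.0242), while Aif1 differed by -0.49 ± 0.30. Plek differed by 2.11 ± 0.59 between mdx and wild type (adjusted p = 0.0671), with mdx arrays at 9.37 and 7.75.

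**Figure D2:**
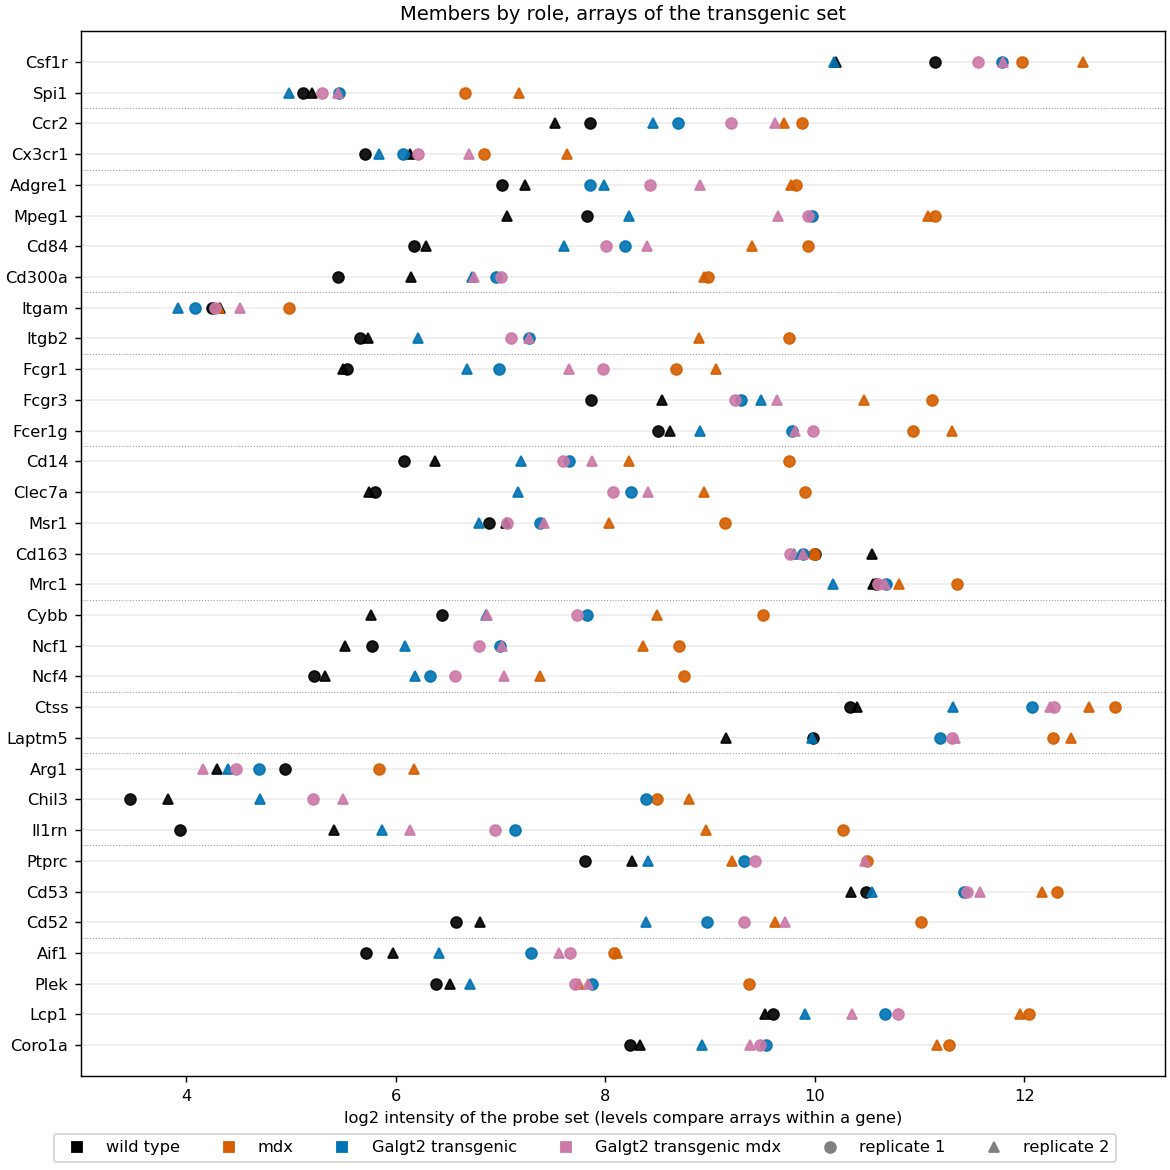
Log2 intensity of each of the 33 genes on the 8 arrays of the transgenic set, grouped by role with dotted lines between roles; colour gives the group and shape the replicate. The orange mdx points lie to the right of the black wild-type points for 31 genes, and the pink transgenic mdx points lie between them for 27.

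Dystrophin-deficient muscle was compared with wild type to ask how far these genes mark the disease. Macrophage and monocyte genes of nearly every role rose: 25 of 33 passed the test as higher and 0 as lower, against 3.75% of all genes higher and 1.69% lower. The split of all genes depended on scaling: 68.9% of the calls were higher as deposited, 57.1% after quantile normalization and 33.3% after every array was shifted to the median of its set, whereas 25, 24 and 25 of the 33 genes were higher and 0 lower. The median difference was 2.59, with 0.01 over all genes, and after the shift 2.31, with -0.28 over all genes. All 4 surface identity genes, all 3 Fc receptor genes, all 3 oxidase genes, both recruitment receptors and both lysosomal genes were among the 25. The 8 that did not pass were Csf1r, Msr1, Plek, Ptprc, Arg1, Mrc1, Itgam and Cd163. In 31 of 33 both mdx arrays lay above both wild-type arrays (23.7% of all genes), the exceptions being Itgam and Cd163, and in 32 of 33 without the array labelled mdx replicate 2 (33.3% of all genes). When single arrays were left out, the median of the 33 stayed between 2.27 and 2.70. The count passing fell most without either wild-type array, and over all genes the calls as higher did too. Both grew without either PBS array, which changes only the shared spread. Adgre1, Aif1, Ccr2, Cd300a, Cd52, Cd84, Clec7a, Coro1a, Ctss, Fcgr1, Fcgr3, Lcp1 and Mpeg1 passed in every such fit. Without the array labelled mdx replicate 2 the count was 24, and without it and transgenic mdx replicate 2 together 19.

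Markers of new muscle fibres, and some markers of other leukocytes, were also higher in mdx muscle. All 4 new fibre genes, the developmental myosins Myh3 and Myh8 and the fusion proteins Mymk and Mymx, rose in mdx against wild type (median 4.10), in transgenic against wild type (median 3.35) and in transgenic mdx against wild type (median 3.78), with and without the 2 arrays named above. Their mean was 5.67 and 5.68 on the wild-type arrays, 9.74 and 9.77 on the mdx, 9.14 and 8.43 on the transgenic and 8.93 and 9.68 on the transgenic mdx arrays, so wild type alone was low. Of 4 genes of satellite cells and myoblasts, the cells that rebuild fibres, Myog rose in mdx muscle (1.95 ± 0.46), and Myog and Myf5 rose in transgenic (2.32 ± 0.46 and 1.10 ± 0.22) and transgenic mdx muscle (2.08 ± 0.46 and 1.24 ± 0.22), each against wild type. Among the other leukocyte markers, the T cell gene Cd3e (2.47 ± 0.55), the NK cell genes Gzma (1.83 ± 0.39) and Klrd1 (2.26 ± 0.37) and the eosinophil gene Siglecf (1.37 ± 0.33) rose in mdx muscle. No B cell, neutrophil, mast cell or dendritic cell gene passed. By sign, 5 of 5 T cell, 3 of 4 B cell, 3 of 5 NK cell and 2 of 4 eosinophil genes were higher in mdx muscle, against 50.8% of all genes. So were 8 of 8 neutrophil genes (median 0.64), 4 of 5 mast cell and 3 of 4 dendritic cell genes. Myog and Siglecf did not pass without the array labelled mdx replicate 2, so which marker genes were called depended on that array. In all, 9 of 61 marker genes of other cell types rose in mdx muscle and 0 fell. Of all genes 3.75% were called higher and 1.69% lower. The median difference of the 61 was 0.37, and 0.64 without the array labelled mdx replicate 2. The part of these cells in the macrophage gene values was not tested.

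In normal muscle the level with the transgene was above wild type, as a difference of group means, for 29 of the 33 genes (44.6% of all genes). Cd52, Cd84, Clec7a and Ctss rose, by 1.99 ± 0.40, 1.67 ± 0.28, 1.93 ± 0.40 and 1.33 ± 0.25, or 3.97-fold, 3.17-fold, 3.82-fold and 2.51-fold (adjusted p = 0.0244, 0.0102, 0.0273 and 0.016). None fell. These are 4 of 33, against 2.12% of all genes called higher and 1.03% called lower, and the median difference was 0.94, with -0.05 over all genes. After the shift to the median of the set 49% of all calls were higher, against 67.4% as deposited, and 4 of the 33 genes again passed, with a median of 0.77. Beside them all 4 new fibre genes, Myog, Myf5 and the NK cell gene Klrd1 (1.74 ± 0.37) rose. Both transgenic arrays lay above both wild-type arrays for 24 genes (20.5% of all genes). Those that overlapped included Csf1r, Spi1, Cx3cr1, Msr1, Mrc1 and Arg1. This comparison and that of mdx share the wild-type arrays.

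The first transgenic array carried much of that difference. It exceeded the second for 31 of 33 genes, all but Adgre1 and Fcgr3 (54.2% of all genes), and the median of the 33 differences was 1.25 without the second transgenic array and 0.57 without the first. No gene passed without the first transgenic array or without either wild-type array. Over all genes, calls as higher were also fewer in each of those fits. Neutrophil markers moved with the first transgenic array. Their mean over 8 genes was 8.49 on it, 5.72 on the second and 4.56 to 5.89 on the other 6 arrays of the set. S100a8 read 12.43 and 9.06 on the 2 transgenic arrays, Ngp 10.19 and 6.66, Camp 8.34 and 5.55 and Mpo 7.67 and 4.84, whereas Elane stayed within the range of the bacterial controls on 11 of the 12 muscle arrays. The means of 4 eosinophil genes (5.52 and 4.31) and 3 erythrocyte genes (6.17 and 4.48) were also higher on the first. Single genes carried much of this. Among the erythrocyte genes Slc4a1 read 8.64 and 4.86 and Alas2 6.05 and 5.09, while Epb42 stayed within the bacterial control range on all 12 muscle arrays. The eosinophil gene Ccr3 went the other way, at 3.41 and 3.66. The part these cells had in the macrophage gene values was not tested.

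In dystrophin-deficient muscle the transgene went with lower levels. Spi1, Adgre1, Cd84, Cd300a, Fcgr3, Lcp1 and Coro1a fell in transgenic mdx against mdx muscle, by 2.18-fold (Adgre1) to 4.25-fold (Cd300a). These are 7 of 33, with 0 higher, against 2.11% of all genes called lower and 3.97% called higher, and the median difference was -1.22, with -0.01 over all genes. Both transgenic mdx arrays lay below both mdx arrays for 29 genes (22.3% of all genes), the exceptions being Itgam, Ptprc, Cd52 and Plek, and for all 33 with the second arrays of both groups left out (47.2%). The 7 come from 4 roles, and no gene of the integrin, oxidase, lysosome, scavenger receptor, recruitment receptor, repair or leukocyte surface groups passed.

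Each of these 7 calls depended on at least 1 array. The count was 2 and 3 without the first or second mdx array, 1 and 1 without the first or second transgenic mdx array, and 0 without both the array labelled mdx replicate 2 and transgenic mdx replicate 2, a combination chosen after the data were seen. It was 4 without either AAV array and 13 without either PBS array, which enter only through the shared spread. Among the removals of single arrays, Cd300a lost its call without transgenic mdx replicate 2 alone (adjusted p = 0.0603), and Cd84 lost it without mdx replicate 1 or transgenic mdx replicate 1 (largest adjusted p = 0.0731). The median difference stayed between -1.46 and -1.10 over the single-array removals. Without the second arrays of both groups it was -1.37, with 0.03 over all genes. Over all genes too, calls as lower were fewer without any mdx, transgenic mdx or AAV array, and more without either PBS array.

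**Figure D3:**
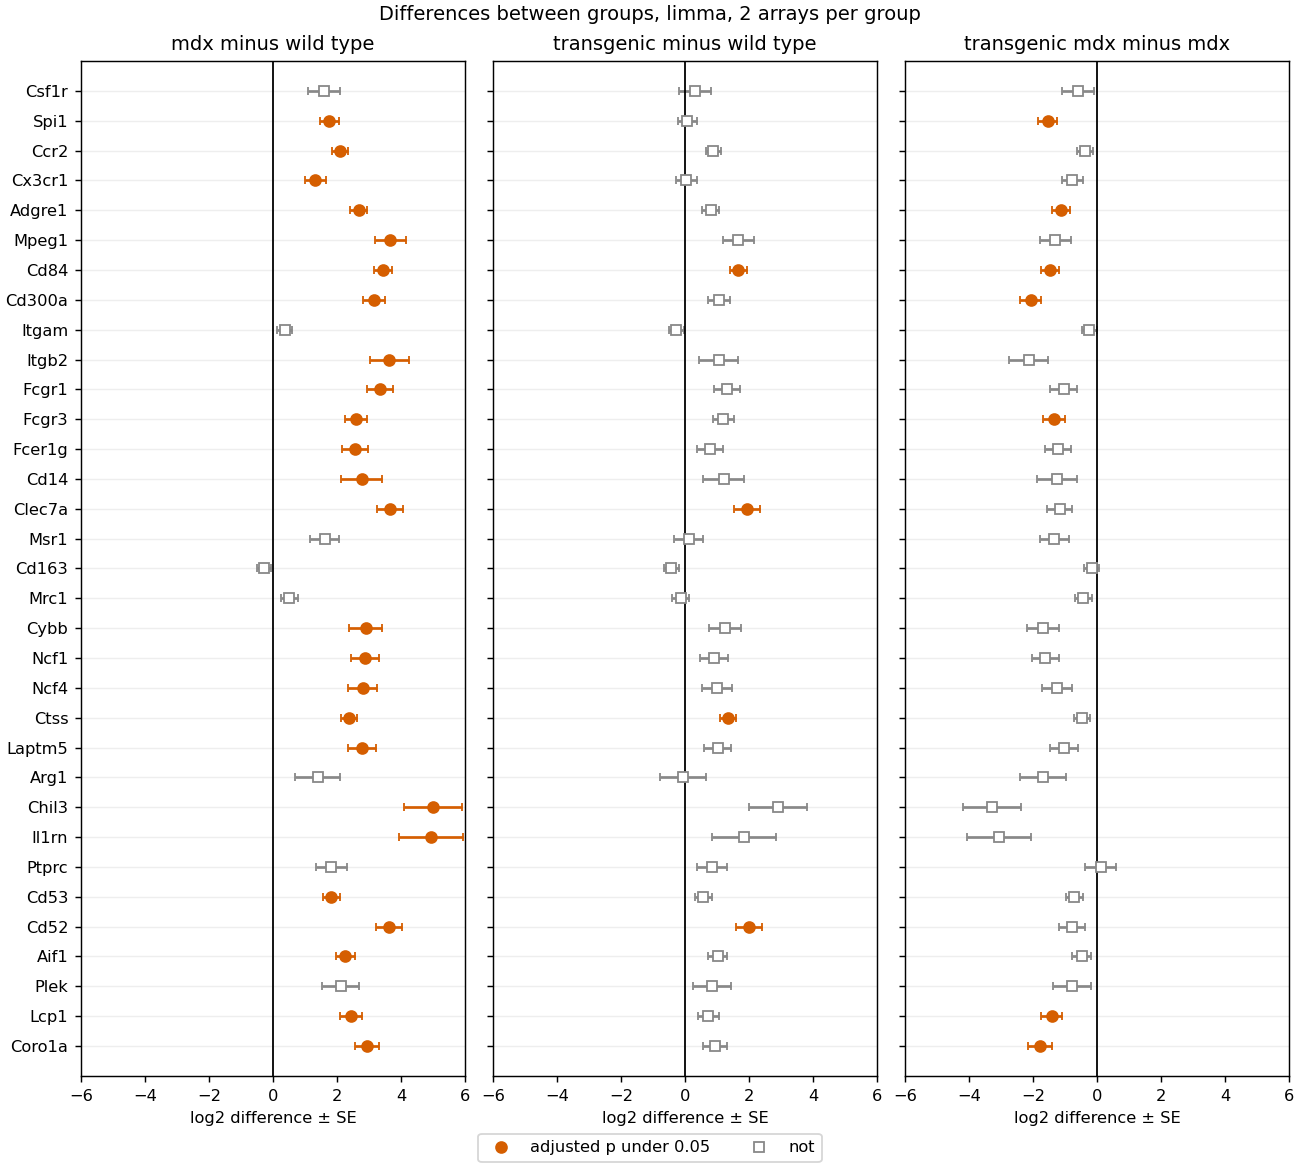
Log2 difference ± standard error of each gene in mdx against wild type (left), transgenic against wild type (middle) and transgenic mdx against mdx muscle (right), with 2 arrays per group. Filled orange circles have an adjusted p under 0.05: 25, 4 and 7 of the 33.

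Lymphocyte markers differed widely between replicates. The mean of 5 T cell genes was 7.16 and 5.63 on the mdx arrays and 6.00 and 7.47 on the transgenic mdx arrays, and that of 4 B cell genes 5.99 and 4.69 against 4.44 and 6.25. Ptprc, which lymphocytes share, was likewise high on the first mdx (10.50) and the second transgenic mdx array (10.48), and lower on the others of those groups. On the wild-type arrays the T cell mean was 4.98 and 5.30 and the B cell mean 4.37 and 4.86. All 5 T cell genes had a positive difference from wild type in mdx (median 1.09) and in transgenic mdx muscle (median 1.47), where Cd3e alone of the 5 passed. Endothelial markers were lower on the transgenic mdx arrays, with a mean over 5 genes of 7.19 and 7.25 against 8.70 and 8.02 in mdx muscle, and of those 5 Esam (-1.24 ± 0.22) and Tie1 (-1.20 ± 0.31) fell. The mature fibre gene Ckm (-0.96 ± 0.21) and the mast cell gene Kit (-1.36 ± 0.31) fell as well, and Myf5 rose (1.13 ± 0.22), and without transgenic mdx replicate 2 none of these 5 passed. The part of these markers in the macrophage gene values was not tested.

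**Figure D4:**
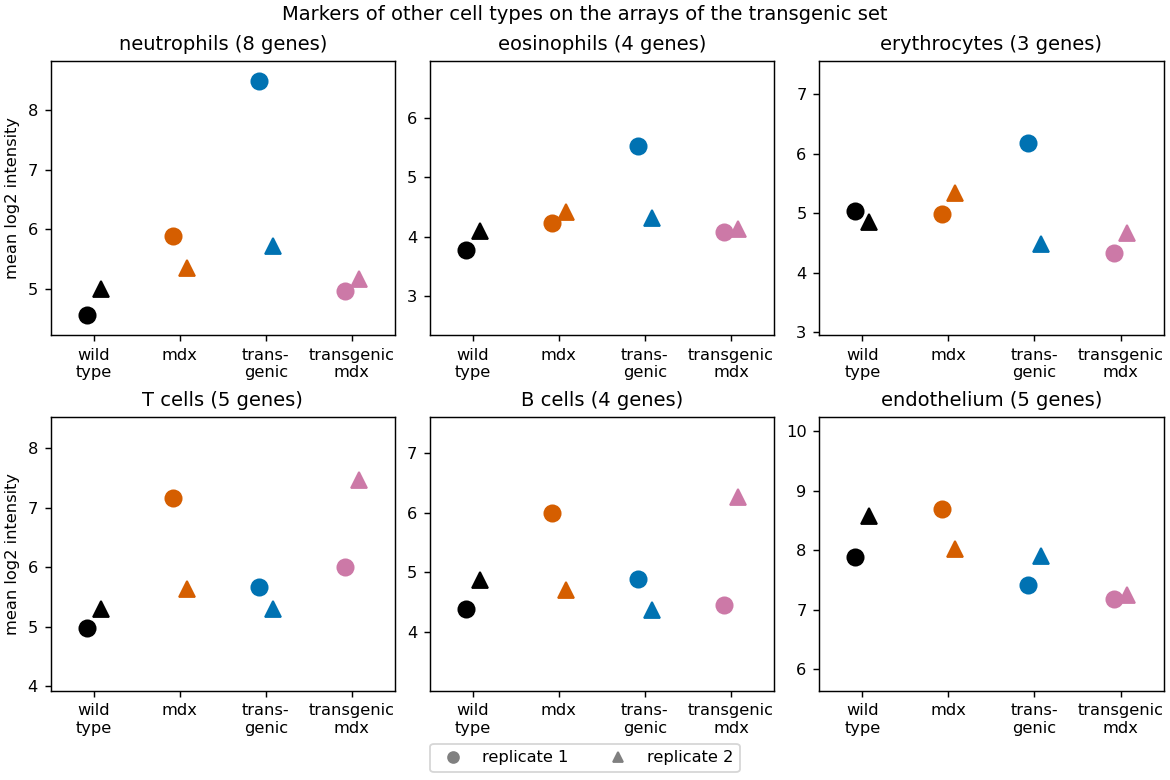
Mean log2 intensity of marker genes of 6 other cell types on the 8 arrays of the transgenic set, circles for replicate 1 and triangles for replicate 2; every panel spans the same number of log2 units. The first transgenic array stands apart for neutrophils (8.49), and the first mdx and second transgenic mdx arrays stand above their replicates for T and B cells.

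Transgenic mdx muscle still differed from wild type. Ccr2, Adgre1, Mpeg1, Cd84, Fcgr1, Clec7a, Ctss, Laptm5, Ptprc, Cd53, Cd52 and Aif1 were higher, from 2.14-fold for Cd53 to 7.11-fold for Cd52, which makes 12 of 33, with 0 lower, against 4.91% of all genes higher and 2.36% lower. After the shift to the median of the set 37.6% of all calls were higher, and 55.3% after quantile normalization, against 67.5% as deposited, while 11 and 12 of the 33 genes were higher and 0 lower. Cd52 differed by 2.83 ± 0.40, Clec7a by 2.47 ± 0.40 and Fcgr1 by 2.29 ± 0.42, and the median of the 33 was 1.34. All 3 leukocyte surface genes and both lysosomal genes passed here, and none of the 3 oxidase genes, whose differences were 1.20 to 1.53. In 30 genes the arrays did not overlap (27.8% of all genes), also without transgenic mdx replicate 2 (36%). Ptprc, Cd53 and Cd52 are shared with lymphocytes, and in the same comparison Cd3e (2.51 ± 0.55), Gzma (1.92 ± 0.39) and Klrd1 (2.32 ± 0.37) rose, beside the new fibre and myoblast genes named above, while Ckm (-1.03 ± 0.21) and Esam (-1.0 ± 0.22) fell. Without transgenic mdx replicate 2 Cd3e, Myf5, Ckm and Esam did not pass. The count was 6 to 18 with single arrays left out, 7 without transgenic mdx replicate 2 and 6 without it and mdx replicate 2 together. Ccr2, Cd52, Cd84, Clec7a and Ctss passed in every single-array removal. Over all genes too, calls as higher were fewer without any wild-type or transgenic mdx array.

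Between the 2 transgenic groups most of the 33 genes were higher in transgenic mdx muscle, but none passed the test. The difference was positive for 29 of the 33 (60.9% of all genes). Transgenic mdx against transgenic muscle gave a median difference of 0.44 (0.07 over all genes), and 0 of the 33 genes passed in limma, where 0.055% of all genes did. At an unadjusted p under 0.05 there were 6, Ccr2, Adgre1, Fcgr1, Ctss, Ptprc and Aif1, all higher in transgenic mdx muscle (3.89% of all genes in either direction). Ccr2 had the smallest p, at 0.83 ± 0.24. Without the second transgenic array the median was -0.0029.

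The transgene difference in mdx minus that in wild type was tested as an interaction. Its mdx part compares groups of different strain, so strain and transgene cannot be told apart in it. The interaction was negative for 31 of 33 genes (45.8% of all genes), with a median of -2.04 (0.05 over all genes). Cd84 alone passed, at -3.13 ± 0.40 (adjusted p = 0.0373): its transgene difference was 1.67 in normal and -1.47 in mdx muscle. This is 1 of 33, against 0.022% of all genes called lower. At an unadjusted p under 0.05 there were 25 (11.9% of all genes in either direction). Next to Cd84 stood Cd300a at -3.14 ± 0.48 (adjusted p = 0.0601). The Cd84 call was lost without either wild-type, the first transgenic, either transgenic mdx or either AAV array, with adjusted p up to 0.131. It was also lost with the replicate block (adjusted p = 0.0959), with each array set fitted on its own (0.0572), on log2(value + 32) (0.0526) and with the mean of all probe sets of a gene (-2.10, adjusted p = 0.0738). The count of genes ran from 0 to 9 over the removals of single arrays. All 4 groups enter this value, so its sign restates the 2 transgene comparisons above.

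Treatment of mdx muscle with AAV-Galgt2 after birth was compared with PBS in the injected set. The 33 genes had a mean level of 8.48 ± 0.19 (SD, n = 2) with AAV-Galgt2 and 8.45 ± 0.73 with PBS. None passed in limma, and no gene of all 18194 did (0%). Only Cd163 had an unadjusted p under 0.05 (8.28% of all genes), with 9.59 and 9.62 on the AAV arrays and 10.04 and 10.50 on the PBS arrays, a difference of -0.67 ± 0.23 (adjusted p = 0.475). The median difference was 0.05 and turned to -0.13 when every array was shifted to the median of its set, a shift that moved the median of all genes from 0.03 to -0.15. Both AAV arrays lay above both PBS arrays only for Spi1 (25.3% of all genes), which read 6.00 and 5.74 against 4.83 and 5.61, and below them only for Clec7a and Cd163 (18.6% of all genes).

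The PBS arrays lay far apart for many of these genes. The second PBS array exceeded the first for 31 of 33 genes, all but Ccr2 and Itgam (51.3% of all genes), and for 19 genes both AAV arrays lay between the PBS arrays (15.4% of all genes). Il1rn read 8.24 and 8.91 on the AAV arrays and 6.47 and 10.16 on the PBS arrays. Arg1 read 5.0 and 4.66 against 4.20 and 7.22, and Itgb2 7.53 and 7.50 against 5.77 and 8.07. In each the AAV replicates were close and the PBS replicates were far apart. The median difference was 0.47 without the second PBS array and -0.32 without the first, with 0.04 and 0.03 over all genes. Fcgr1 differed by 1.47 without the second PBS array, and by 0.65 ± 0.42 with all arrays. S100a8 also differed between the PBS arrays, at 6.98 and 10.63. Standard errors of the AAV differences ran from 0.23 for Itgam and Cd163 to 1.00 for Il1rn. They rest on the spread shared by all 6 groups and do not measure that of the PBS arrays alone. For Adgre1 the difference was -0.11 ± 0.28 and for Cd84 -0.01 ± 0.28.

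**Figure D5:**
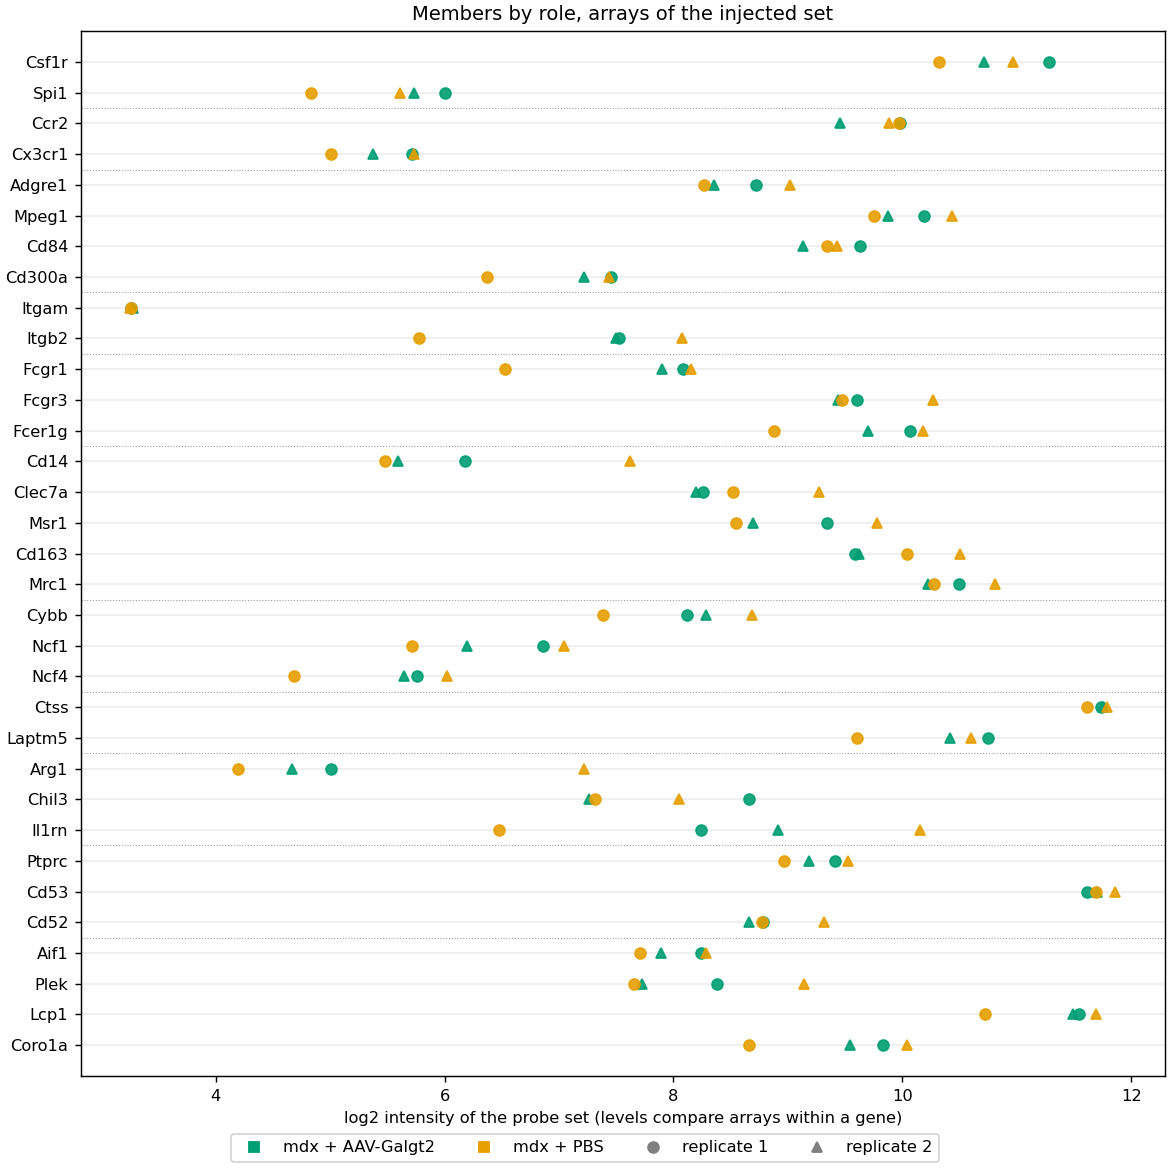
Log2 intensity of each gene on the 4 arrays of the injected set, green for AAV-Galgt2-treated and orange for PBS-treated mdx muscle, circles for replicate 1 and triangles for replicate 2. The PBS points lie on either side of both AAV points for 19 genes, and Itgam stays at the level of the bacterial controls.

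The genes around these markers were described from a list of 48 further myeloid pathway genes, 43 of which had a probe set. In mdx against wild-type muscle 21 of the 43 rose and 0 fell, against 3.75% of all genes higher and 1.69% lower, with a median of 1.62. The count was 15 without the array labelled mdx replicate 2 and 14 without it and transgenic mdx replicate 2. Itgax (CD11c, an integrin chain of dendritic cells and some macrophages) read 4.69 and 4.48 in wild-type and 9.91 and 8.45 in mdx muscle, a difference of 4.60 ± 0.87. Fcgr4, an activating IgG receptor, rose by 3.84 ± 0.37 and Tlr13, a sensor of bacterial RNA, by 3.40 ± 0.46. The ligands that call monocytes went the same way, as 4 of 5 monocyte chemokines rose (Ccl2, Ccl7, Ccl8 and Ccl12), though without the array labelled mdx replicate 2 Ccl2 alone of these passed. None of 4 growth factor and 4 inflammatory cytokine genes passed, but many of these had no readable level: Csf2 and Csf3 stayed within the range of the bacterial controls on all 12 arrays, Il6 on 7, Nos2 on 6 and Tnf on 3. Of 6 adaptor and kinase genes 5 rose, among them Tyrobp (DAP12), the adaptor that pairs with many myeloid receptors.

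In transgenic against wild-type muscle 2 of the 43 rose, against 2.12% of all genes, Fcgr4 by 3.04 ± 0.37 and Tyrobp by 1.16 ± 0.27. In transgenic mdx against mdx muscle 6 fell and 1 rose, against 2.11% of all genes lower and 3.97% higher. Without transgenic mdx replicate 2, 1 fell (Cyba) and 0 rose, and without the array labelled mdx replicate 2, 6 fell and 0 rose. Tlr13 differed by -2.13 ± 0.46, Cyba, the membrane partner of Cybb in the oxidase, by -2.10 ± 0.33 and Tyrobp by -1.66 ± 0.27. Tyrobp read 8.42 and 8.51 (wild type), 11.80 and 11.29 (mdx), 9.93 and 9.31 (transgenic), and 9.95 and 9.81 (transgenic mdx), so its groups stood in the order seen for Cd84. Tlr4, the lipopolysaccharide receptor, was the exception and rose by 1.93 ± 0.39, a call lost without either of those arrays: it read 8.91 and 7.63 in mdx and 10.47 and 9.92 in transgenic mdx muscle, and at 10.15 and 9.81 it was likewise above both mdx arrays in transgenic muscle that has dystrophin. The medians of the 43 were 0.58 and -0.53 in these comparisons. Against wild type, 7 of the 43 were higher in transgenic mdx muscle (4.91% of all genes; 3 of the 43 without transgenic mdx replicate 2), led by Ccl12 (3.57 ± 0.52), Fcgr4 (3.46 ± 0.37) and Runx1 (2.42 ± 0.56). Tyrobp was the only one of the 43 to pass in the interaction (-2.82 ± 0.38, adjusted p = 0.0429), a call lost without transgenic mdx replicate 2, and none passed in transgenic mdx against transgenic muscle, where Ccl12 had the smallest p (1.71 ± 0.52, unadjusted p = 0.00807), or with AAV-Galgt2, where Pparg did (-0.86 ± 0.25, unadjusted p = 0.00606).

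In C2C12 cells, which hold no macrophages, the 33 genes averaged 4.91 to 5.08, and 2 or 3 of them lay above the array median, against 14 to 30 in the transgenic set and 27 to 30 in the injected set. Cd53 was the highest of the 33 on each of these arrays, at 10.23 and 12.09 in C2C12 myoblasts and myotubes and 9.53 and 10.36 in their Galgt2-transfected counterparts, so this probe set also gives signal in muscle cells. In all, 17 of the 33 lay above every bacterial control on all 4 C2C12 arrays, among them 14 of the 25 genes called in mdx muscle. That floor is low: the highest control read 4.02 to 4.47 and the median gene 6.93 to 7.05. The share of all genes above the floor was not counted. Some of the 17 lay little above it, such as Spi1 (4.73 to 5.17) and Fcgr1 (4.65 to 5.03) on these arrays. Il1rn read 6.07 to 8.34 there, Cd300a 5.79 to 7.56, Cd14 6.39 to 7.35 and Msr1 5.81 to 8.85. Mpeg1, Itgam, Chil3, Ptprc, Cd52 and Aif1 stayed within the range of the controls on all 4.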

How the data were processed

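The authors deposited an intensity for each probe set of 16 arrays and, per the submitters' processing notes, used GCOS and RMA, with no versions given. Array medians were 57.69 to 63.95 in the transgenic and 25.35 to 25.71 in the injected set, and no level was compared across sets. There is no read depth, and 2 arrays per group limit the precision. Of 45101 probe sets, 34958 carry 1 gene symbol in the supplied annotation and were used, while 932 with several and 9211 with none were not. The 33 genes have 62 probe sets, and 17 genes have only 1.

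Values were taken as log2 and all 12 muscle arrays entered 1 linear model with a mean for each of 6 groups (limma 3.58.1, R 4.3.3, eBayes). P-values are two-sided, and those of a comparison were adjusted together over 18194 genes (Benjamini-Hochberg, threshold 0.05). The fit was also run on simulated data with independent noise and shifts added to the mdx group alone. Those data held no outlying array and no shared array effect, so they cannot show how the fit handles these. The genes, roles and lists were chosen with earlier results of these data known. Levels on every array are given for the highest and lowest gene of each role, for genes called in transgenic mdx against mdx, in transgenic against wild type or in the interaction, and for a few named after their values were seen. From the other lists up to 3 called genes per comparison are named. The bacterial control range and the marker levels were also examined after the data were seen. Same-numbered replicates were checked for pairing: correlations of their deviations ran from -0.44 to 0.54 in the transgenic set and were -0.05 in the injected set, so no pairing was used.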

Additional observations from a re-analysis of the deposited data

Results flagged for a closer look

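Cd84 was the 1 gene of the 33 for which the transgene difference in mdx muscle and that in normal muscle themselves differed by a test. The transgene difference in mdx minus that in wild type was -3.13 ± 0.40 (limma, adjusted p = 0.0373). Cd84 was higher with the transgene in normal muscle, on 2 of 2 arrays against both wild-type arrays, and lower with it in mdx muscle, on 2 of 2 arrays against both mdx arrays. The value ran from -3.42 to -2.85 when single arrays were left out, and the adjusted p reached 0.131. It passed without either mdx array, without the second transgenic array and without either PBS array, and did not pass in the other 7 removals. Nor did it pass with the replicate block (adjusted p = 0.0959), with each array set fitted on its own (0.0572), on log2(value + 32) (0.0526) or with the mean of all probe sets of a gene (0.0738). The part in this value of the neutrophil markers that were high on the first transgenic array was not tested. The transgenic mdx and mdx groups also differ in strain, so strain and transgene cannot be told apart in the interaction.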

How the results depend on the processing

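The counts of genes passing kept within 1.5 times of those reported except as follows. For transgenic against wild type (4), 2 passed with each array set fitted on its own and 2 on log2(value + 32). For the interaction (1), 0 passed with each set fitted on its own, with the replicate block, on log2(value + 32) and with the mean of all probe sets of a gene, while 2 passed after shifting arrays to a common median and 3 with trended, robust eBayes. With the second mdx and second transgenic mdx arrays both left out, chosen after the data were seen, 0 passed in transgenic mdx against mdx, 6 in transgenic mdx against wild type and 0 in the interaction. Leaving out single arrays gave 13 to 28 genes for mdx against wild type, 0 to 6 for transgenic against wild type, 1 to 13 for transgenic mdx against mdx, 6 to 18 for transgenic mdx against wild type, 0 to 9 for the interaction and 0 to 1 for AAV-Galgt2 against PBS. In the first 4 of them, calls over all genes in the same direction were fewer without any array of a compared group. The 33 genes went the other way in transgenic against wild type without the second transgenic array, where more of them passed. For AAV-Galgt2 against PBS, calls over all genes also appeared in some removals, most of all without the second PBS array. The median difference of transgenic mdx against transgenic ran from -0.0029 without the second transgenic array, a change of sign, to 0.67 without the first. With the replicate block the counts were 23, 3, 6 and 9 in the first 4 of these comparisons. Leaving out dim genes removed Spi1 and Itgam. For single genes, 4428 alternative values kept their direction and side of the threshold, 176 lost and 112 gained a call, and 121 uncalled differences changed sign; the cause was not tested. With signal near that of the bacterial controls, low levels of Itgam, Chil3, Arg1 and Il1rn cannot be ordered.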
